A study of Mus musculus with 4 samples.

Results

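The genes described here are those of the Wnt pathway as fixed by a list of names: the Wnt ligands, the frizzled receptors, the secreted antagonists of the Sfrp and Dkk families, and Wls, Wif1, Lrp5, Lrp6, Ror1, Ror2, Apc, Axin1, Axin2, Ctnnb1, Nkd1, Lef1, Tcf7, Tcf7l1 and Tcf7l2. Members were all probe sets (groups of short probes that read 1 transcript region) with a single platform gene symbol on that list and a value on all 4 arrays. This gave 109 of 45037 probe sets, reading 51 of 18193 genes, and no probe set carried the symbol Tcf7 alone. The arrays came from primary cultures of C57BL6 mouse cerebral cortex, 2 of neurons and 2 of astrocytes, labelled as biological replicates. Neurons came from fetuses at embryonic day 16. By the shared protocol all cells were plated with 10% fetal calf serum and 33 mM glucose, and neurons were soon moved to 1% serum, 19.4 mM glucose, progesterone, putrescine, transferrin, insulin and selenite. Astrocytes came from newborn mice and stayed on the plating recipe. The series text gives 7 days in culture for neurons and 20 days for astrocytes, while the protocol states 7 to 8 days for all assays. Donor age, medium and culture time changed together with cell type, and their effects cannot be told apart. The sources used here do not say how many animals went into a culture.

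Wnt proteins are lipid-modified secreted signals. They leave the producing cell on the carrier Wls and bind frizzled receptors, together with Lrp5 or Lrp6 in the branch that stabilises beta-catenin, or with Ror receptors in branches that act on cell shape and polarity. Without a signal, a complex built on axin and Apc marks beta-catenin for breakdown; with a signal, beta-catenin enters the nucleus and acts with TCF and LEF factors, and Axin2 and Nkd1 are feedback inhibitors that the pathway itself induces. In the developing cortex the pathway is known for roles in progenitor growth, patterning, axon and synapse formation and, through Wnt7a and Wnt7b, blood vessel growth.

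Of the 109 member probe sets, 64 passed the filter on dim signals, which asks for at least 2 of 4 arrays to reach the median of their array. This left 31 of the 51 genes with a tested probe set. Signals are linear intensities, the comparison was made with limma on log2(signal + 12.5), and a call is an adjusted p under 0.05 over all 25019 tested probe sets. A gene was read by its tested probe set with the highest mean. Read this way, 6 member genes were higher in neurons and 19 were higher in astrocytes, and 6 were tested without a call. The number higher in neurons was 3 without neurons replicate 1, and 2 with the filter set at the 75th percentile, where 21 member genes were tested. Among all 12040 tested genes, 31% were called higher in neurons and 31.1% higher in astrocytes. By probe set, 9 were higher in neurons and 42 in astrocytes, where 29.4% and 27.7% of all tested probe sets were called in those directions. Because a member bright in only 1 culture passes the filter through that culture, the 109 probe sets were also tested without any filter: 7 were higher in neurons and 41 in astrocytes, against 15.3% and 13.7% of all 45037 probe sets. The median log2 fold change (neurons minus astrocytes, as for every log2 fold change below) of all 109 was -0.33, and that of all 45037 probe sets was 0.06.

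The plot of calls by role shows how the members divide. Neurons had the higher signal for Wnt4, Wnt7b, Fzd9, Sfrp2, Apc and Nkd1. Astrocytes had it for Wnt5a, Wnt5b, Wnt9a, Wls, 6 frizzled genes, Lrp6, Ror1, 3 secreted antagonists, Axin2, Ctnnb1 and both measured TCF genes. In RNA of whole cultures, fewer cells of a type and less RNA per cell cannot be told apart. A level is compared only within a probe set, since probe sets differ in how strongly they bind their target.

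**Figure D1:**
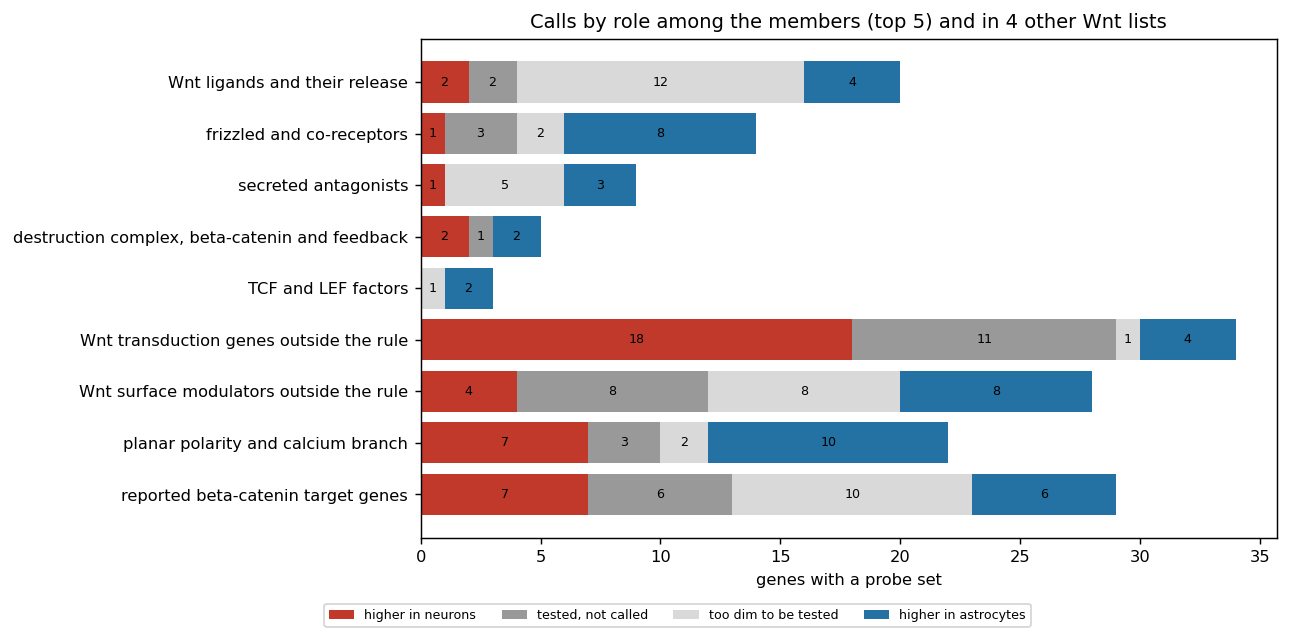
Number of genes (x axis) in each role of the members (upper 5 bars) and in 4 other Wnt lists (lower 4 bars), split by the limma call at adjusted p under 0.05, by missing the call, and by being too dim to be tested. Receptors show 1 call in neurons and 8 in astrocytes, while intracellular transduction genes outside the member list show 18 in neurons and 4 in astrocytes. Intracellular members show 2 and 2 (destruction complex, beta-catenin and feedback) and 0 and 2 (TCF and LEF factors). Of all 12040 tested genes, 31% were called higher in neurons and 31.1% in astrocytes.

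Among the ligands, Wnt7b, known for its role in vessel growth into the brain and in dendrite growth, was the Wnt gene with the largest excess in neurons. Its main probe set, 1420892_at, read 271 and 249 in neurons, against 26 and 30 in astrocytes, a 6.73-fold difference (log2 fold change 2.75, 95% confidence interval 2.33 to 3.17, adjusted p = 4.68e-06). The other Wnt7b probe set, 1420891_at, read 49 and 45 in neurons, against 12 and 12 in astrocytes. That second reading was under the background in astrocytes, set here by the highest of the Bacillus subtilis control probe sets (21 and 23 on the neuron arrays, 17 and 15 on the astrocyte arrays), so it is at least 2.94-fold higher in neurons (adjusted p = 0.00193). With an offset 4 times as large the log2 fold change was 1.99 on 1420892_at and 0.65 on 1420891_at, where it was 1.28 before.

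Wnt4, a ligand with roles in kidney and gonad development, showed a smaller excess in neurons. Its main probe set, 1450782_at, read 96 and 89 in neurons, against 57 and 46 in astrocytes (1.65-fold, adjusted p = 0.0153). The second, 1441687_at, read 93 and 44 in neurons, against 17 and 19 in astrocytes (2.53-fold, adjusted p = 0.00630). The groups did not overlap on either, but the call of 1450782_at was lost whichever array was dropped (adjusted p up to 0.0963), and that of 1441687_at without neurons replicate 1 (0.0547), astrocytes replicate 1 (0.123) or astrocytes replicate 2 (0.109).

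Wnt7a, which shares with Wnt7b the role in brain vessel growth, gave no call on either tested probe set. Probe set 1423367_at read 89 and 74 in neurons, against 69 and 90 in astrocytes (log2 fold change 0.04, interval -0.45 to 0.52, adjusted p = 0.898), and 1447647_at read 57 and 35 in neurons, against 42 and 25 in astrocytes (0.35, interval -0.32 to 1.01). The groups overlapped on both. Wnt6 also overlapped, at 41 and 48 in neurons, against 52 and 40 in astrocytes (log2 fold change -0.03, interval -0.56 to 0.49). The sign of both genes' estimates changed with the array left out, and that of Wnt7a 1423367_at also with the scaling.

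Astrocytes had the higher signal for Wnt5a and Wnt5b, ligands best known for acting through the polarity and calcium branches. Wnt5a probe set 1436791_at read 96 and 92 in neurons, against 296 and 238 in astrocytes (2.61-fold higher in astrocytes, adjusted p = 0.000186), and 1448818_at read 30 and 23 in neurons, against 85 and 77 in astrocytes (2.40-fold). Wnt5b probe set 1439373_x_at read 47 and 43 in neurons, against 176 and 206 in astrocytes (3.53-fold, adjusted p = 5.55e-05). Its other probe set, 1422602_a_at, was under the background in neurons at 3 and 3, against 80 and 90 in astrocytes, at least 3.86-fold higher in astrocytes. Both genes gave the same direction on each tested probe set, with no overlap of the groups. The log2 fold change of Wnt5b 1422602_a_at was -2.65, and it was -1.35 with an offset 4 times as large and -3.84 with one 4 times smaller. Wnt9a, a ligand studied mainly in joints and limbs, read 100 and 78 in neurons, against 410 and 438 in astrocytes (4.32-fold, adjusted p = 1.30e-05).

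The remaining 12 Wnt genes had no tested probe set: Wnt1, Wnt2, Wnt2b, Wnt3, Wnt3a, Wnt8a, Wnt8b, Wnt9b, Wnt10a, Wnt10b, Wnt11 and Wnt16. Their 15 probe sets read between 0 and 45 over the 4 arrays, and the fit without a filter called 0 of the 15 at adjusted p under 0.05 and 0 at unadjusted p under 0.05. Wnt2, a vascular ligand, read 20 and 24 in neurons, against 15 and 13 in astrocytes, and Wnt11 read 35 and 21 in neurons, against 17 and 17 in astrocytes.

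**Figure D2:**
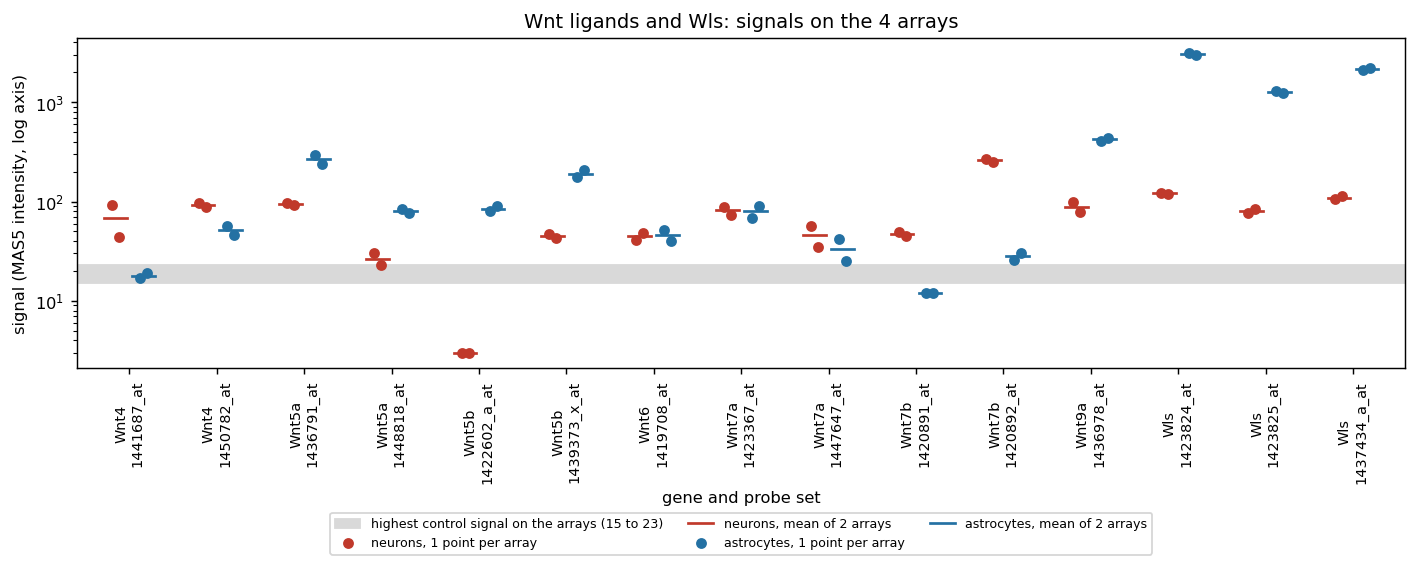
Signal (MAS5 intensity, log axis) of the tested probe sets of Wnt ligands and of the carrier gene Wls, with neurons left of astrocytes, 1 point per array and a line at the mean of 2 arrays; the grey band spans the highest control signal of the arrays, 15 to 23. Wnt7b and Wnt4 lie higher in neurons, Wnt5a, Wnt5b, Wnt9a and Wls higher in astrocytes, and the Wnt7a and Wnt6 groups overlap.

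Wls, the membrane carrier that takes Wnt proteins to the cell surface, had a larger fold difference than any ligand gene. Probe set 1423824_at read 122 and 119 in neurons, against 3099 and 2997 in astrocytes, a 23.0-fold excess in astrocytes (log2 fold change -4.52, interval -4.80 to -4.25, adjusted p = 1.10e-07). Probe sets 1437434_a_at and 1423825_at gave 17.8-fold and 13.7-fold. All 3 stayed above the background in neurons. Porcn, the enzyme that attaches the lipid, is not a member and was chosen after its values were seen. It read 135 and 139 in neurons, against 94 and 101 in astrocytes (log2 fold change 0.44, adjusted p = 0.0540), which missed the threshold.

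Receptor genes were mostly higher in astrocytes. Of 14 genes for frizzled receptors and co-receptors, 12 were tested, of which 8 were higher in astrocytes, 1 was higher in neurons and 3 gave no call. Of all tested genes, 31.1% were called higher in astrocytes and 31% in neurons. The median log2 fold change of the tested receptor genes was -1.76, while that of all tested genes was 0.02. Some of them, such as Fzd5, passed the filter through the astrocyte arrays alone. Over all 34 receptor probe sets without the filter the median was -0.78, and that of all 45037 probe sets was 0.06. In that fit 16 of the 34 were called higher in astrocytes and 1 in neurons. The shares over all 45037 probe sets were 13.7% and 15.3%. Fzd5, a receptor of the beta-catenin branch, had the largest log2 fold change among the members by brightest probe set at the offset of 12.5. Its probe set 1455604_at read 25 and 22 in neurons, against 878 and 937 in astrocytes (25.6-fold higher in astrocytes, log2 fold change -4.68, interval -5.04 to -4.31, adjusted p = 1.85e-07). In neurons this was at the level of the background. Averaged over tested probe sets, the log2 fold change was -3.31 for Fzd5 and -4.15 for Wls. The second Fzd5 probe set, 1422937_at, read 9 and 1 in neurons, against 55 and 51 in astrocytes, at least 2.41-fold higher in astrocytes.

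Fzd6, a receptor of the polarity branch in skin and hair, followed. Probe set 1417301_at read 7 and 39 in neurons, against 750 and 642 in astrocytes (22.3-fold, log2 fold change -4.48, interval -5.36 to -3.60, adjusted p = 1.93e-05). Its neuron arrays differed, with replicate 2 above and replicate 1 under the background. Dropping neurons replicate 1 gave -3.78, and dropping neurons replicate 2 gave -5.18. Probe set 1448662_at gave at least 4.75-fold, from 3 and 10 in neurons, against 104 and 105 in astrocytes. When the offset was 4 times as large, the log2 fold change was -3.38 for Fzd6 1417301_at and -3.70 for Fzd5 1455604_at. The dimmer probe sets moved further, to -1.45 for Fzd6 1448662_at (from -2.65) and to -0.91 for Fzd5 1422937_at (from -1.94). With an offset 4 times smaller the values were -5.08, -3.59 and -2.99 for 1417301_at, 1448662_at and 1422937_at. Averaging the tested probe sets of each gene gave -3.31 for Fzd5 and -3.56 for Fzd6. Another Fzd6 probe set, 1458904_at, did not pass the filter and had the opposite sign. It read 31 and 32 in neurons, against 25 and 5 in astrocytes. Its log2 fold change without the filter was 0.78, without a call.

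Fzd7, a receptor found in many stem cell populations, read 48 and 55 in neurons, against 438 and 413 in astrocytes (6.85-fold, adjusted p = 2.25e-06). Fzd1 read 202 and 200 in neurons, against 672 and 716 in astrocytes (3.31-fold). Fzd2, a close relative of Fzd1 and Fzd7, read 55 and 63 in neurons, against 237 and 230 in astrocytes on 1418534_at (3.45-fold), and 1418533_s_at and 1418532_at gave 2.37-fold and 3.35-fold. All 3 of these related receptor genes were higher in astrocytes. Fzd2 probe set 1418532_at, which read 27 and 58 in neurons, against 124 and 216 in astrocytes, lost its call without neurons replicate 1 (adjusted p = 0.0848) or astrocytes replicate 2 (0.0981). Fzd8 read 37 and 38 in neurons, against 167 and 175 in astrocytes on 1423348_at (3.67-fold, adjusted p = 4.27e-05), and 1.93-fold higher in astrocytes on 1445815_at.

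Fzd9, a receptor gene studied at synapses and in bone, was the frizzled gene higher in neurons. It read 101 and 67 in neurons, against 5 and 18 in astrocytes (4.11-fold, log2 fold change 2.04, interval 1.29 to 2.78, adjusted p = 0.000758). The 2 neuron values lay above both astrocyte values, but the call was lost without neurons replicate 1 (adjusted p = 0.0618). The estimate also depended on the offset: 1.12 with an offset 4 times as large and 2.71 with one 4 times smaller.

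Fzd3, required for axon tracts in the forebrain, gave no single answer. Its brightest probe set, 1434788_at, read 1696 and 1644 in neurons, against 1808 and 1824 in astrocytes (log2 fold change -0.12, interval -0.36 to 0.12, adjusted p = 0.357). Probe sets 1450135_at, 1449730_s_at and 1421157_at were 2.52-fold, 2.48-fold and 1.82-fold higher in astrocytes, and 1450135_at read 52 and 44 in neurons, against 143 and 136 in astrocytes. The ratio of 1434788_at to 1450135_at was 32.6 and 37.4 in neurons, against 12.6 and 13.4 in astrocytes. Which transcript regions these probe sets read was not analysed here. The fifth, 1438101_at, gave no call. The mean of all 5 had a log2 fold change of -0.81 (adjusted p = 0.000967). Probe set 1421157_at lost its call without neurons replicate 1 (0.0872), neurons replicate 2 (0.0682) or astrocytes replicate 1 (0.0817).

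Fzd4, the receptor of norrin and Wnt7 in vessels, read 62 and 56 in neurons, against 57 and 57 in astrocytes on 1434756_at (log2 fold change 0.04, interval -0.43 to 0.50), and 1419301_at, at 26 and 55 in neurons, against 71 and 50 in astrocytes, gave no call either (adjusted p = 0.194). Fzd10 read 54 and 36 in neurons, against 36 and 36 in astrocytes (0.23, interval -0.33 to 0.79). Neither difference could be told from the spread between arrays.

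Of the co-receptors, Lrp6, which passes the signal to the axin complex, read 137 and 117 in neurons, against 270 and 223 in astrocytes on 1428500_at (1.85-fold, adjusted p = 0.00236). This call was lost without neurons replicate 2 (adjusted p = 0.0523) or astrocytes replicate 1 (0.0606). The other Lrp6 probe set, 1451022_at, read 32 and 49 in neurons, against 57 and 84 in astrocytes, and missed the threshold (adjusted p = 0.0638). It was called with the replicate block (0.0363), with quantile normalization (0.0399) and with equal array medians (0.0314). Ror1, a receptor kinase for Wnt5a, read 17 and 28 in neurons, against 246 and 173 in astrocytes (6.34-fold, log2 fold change -2.66, interval -3.23 to -2.09). Its log2 fold change was -1.83 with an offset 4 times as large. Lrp5 and Ror2 were too dim to be tested, with Lrp5 at 4 and 15 in neurons, against 15 and 9 in astrocytes.

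**Figure D3:**
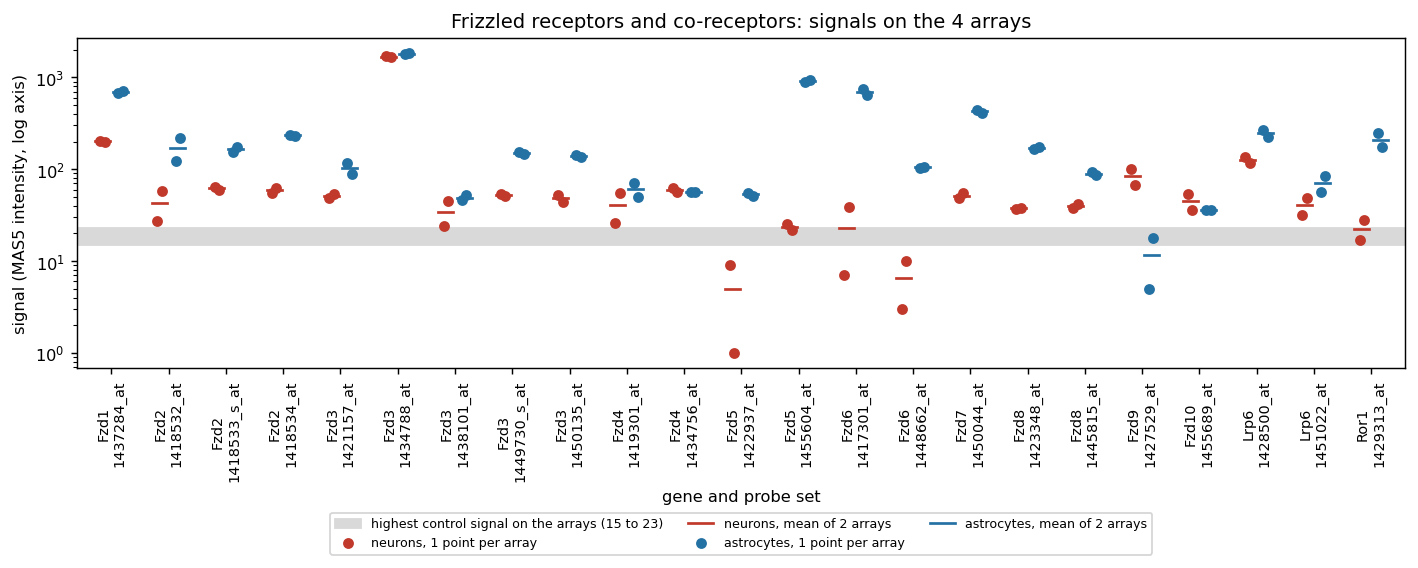
Signal (MAS5 intensity, log axis) of the tested probe sets of frizzled receptors and co-receptors, with neurons left of astrocytes, 1 point per array and a line at the mean of 2 arrays; the grey band spans the highest control signal of the arrays, 15 to 23. Fzd5 and Fzd6 are near the band in neurons and between 642 and 937 in astrocytes on their brighter probe sets, Fzd9 lies higher in neurons, and Fzd3 differs between its own probe sets.

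Promoter windows from the RefSeq table (GRCm38.p6, 250 bases before to 50 after the transcription start) are shown for members with large differences in each direction. These are Fzd5 and Wls, higher in astrocytes, and Sfrp2 and Fzd9, higher in neurons. The choice was not by size alone. By brightest probe set, Apc (log2 fold change 3.89) and Wnt7b (2.75) had larger differences in neurons than Sfrp2 (2.28) and Fzd9 (2.04) and are not shown. Wnt5b is added as the called member whose window held the TCF/LEF core CTTTGAT on either strand. Capitals mark that core and the GC box GGGCGG, also searched on both strands; neighbouring GC boxes can overlap. Windows were matched for 35 of 51 members. The Fzd5 window lies at chr1:64737701-64738000 on the minus strand, that of Wls at chr3:159839400-159839699 on the plus strand, that of Sfrp2 at chr3:83766071-83766370 on the plus strand, that of Fzd9 at chr5:135250998-135251297 on the minus strand and that of Wnt5b at chr6:119449337-119449636 on the minus strand.
Fzd5: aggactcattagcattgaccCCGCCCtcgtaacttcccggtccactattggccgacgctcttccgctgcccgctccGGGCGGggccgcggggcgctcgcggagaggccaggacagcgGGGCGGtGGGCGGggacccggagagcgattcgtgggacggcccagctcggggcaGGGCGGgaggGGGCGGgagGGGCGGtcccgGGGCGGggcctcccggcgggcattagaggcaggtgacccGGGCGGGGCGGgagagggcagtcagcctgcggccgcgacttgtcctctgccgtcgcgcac
Wls: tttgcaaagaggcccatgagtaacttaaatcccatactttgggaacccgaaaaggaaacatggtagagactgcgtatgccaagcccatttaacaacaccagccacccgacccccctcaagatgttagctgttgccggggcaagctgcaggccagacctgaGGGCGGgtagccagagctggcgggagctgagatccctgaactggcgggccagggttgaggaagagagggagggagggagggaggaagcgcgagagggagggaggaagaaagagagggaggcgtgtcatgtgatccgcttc
Sfrp2: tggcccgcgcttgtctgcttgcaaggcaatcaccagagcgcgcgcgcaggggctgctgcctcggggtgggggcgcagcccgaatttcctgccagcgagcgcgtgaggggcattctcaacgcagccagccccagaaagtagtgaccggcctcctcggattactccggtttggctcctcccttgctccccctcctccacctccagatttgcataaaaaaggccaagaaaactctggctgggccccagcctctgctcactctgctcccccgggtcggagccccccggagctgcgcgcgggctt
Fzd9: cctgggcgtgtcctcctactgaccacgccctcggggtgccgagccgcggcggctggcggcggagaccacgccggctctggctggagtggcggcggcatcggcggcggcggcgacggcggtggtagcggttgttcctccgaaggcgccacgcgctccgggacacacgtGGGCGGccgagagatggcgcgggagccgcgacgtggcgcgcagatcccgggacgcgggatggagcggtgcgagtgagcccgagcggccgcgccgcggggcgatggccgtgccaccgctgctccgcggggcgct
Wnt5b: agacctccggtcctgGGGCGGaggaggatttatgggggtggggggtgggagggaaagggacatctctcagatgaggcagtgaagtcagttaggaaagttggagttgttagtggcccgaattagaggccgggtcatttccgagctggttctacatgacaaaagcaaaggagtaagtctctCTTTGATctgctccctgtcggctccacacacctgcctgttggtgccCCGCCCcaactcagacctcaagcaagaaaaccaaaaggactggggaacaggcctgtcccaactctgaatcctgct
The Fzd5 window held 10 GC boxes, that of Wnt5b 2, those of Wls and Fzd9 1 each, and that of Sfrp2 0. The GC content was 75.7% for Fzd5, 58.0% for Wls, 66.0% for Sfrp2, 78.0% for Fzd9 and 55.0% for Wnt5b. CTTTGAT stood in 2 of 43 member windows, those of Wnt5b and Wnt11, and in 3.73% of all 32851 windows. GGGCGG stood in 33 of the 43 member windows and in 35.7% of all windows. A match is a run of letters in this window and no evidence of binding.

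Secreted antagonists divided by family member. Sfrp1 and Sfrp2 bind Wnt proteins outside the cell, and these close relatives differed in opposite directions. Sfrp1 probe set 1428136_at read 198 and 305 in neurons, against 1838 and 1986 in astrocytes (7.44-fold higher in astrocytes, log2 fold change -2.90, interval -3.33 to -2.46, adjusted p = 4.01e-06). All 5 Sfrp1 probe sets were called in this direction, by 3.94-fold to 8.66-fold, and on each of them neurons replicate 2 read above neurons replicate 1 (305 against 198, 147 against 80, 125 against 56, 231 against 100 and 32 against 21). Probe set 1448395_at lost its call without astrocytes replicate 1 (adjusted p = 0.0658) or astrocytes replicate 2 (0.0515). The log2 fold change of the dimmest, 1416594_at, was -2.60, and -1.83 with an offset 4 times as large.

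Sfrp2 read 59 and 57 in neurons, against 1 and 3 in astrocytes. The astrocyte values were under the background, so Sfrp2 was at least 3.62-fold higher in neurons (adjusted p = 9.59e-05). On the offset scale its log2 fold change was 2.28, and it was 1.05 with an offset 4 times as large and 3.60 with one 4 times smaller. Sfrp4 read 78 and 57 in neurons, against 166 and 183 in astrocytes (2.36-fold higher in astrocytes, adjusted p = 0.000790). Frzb, a further member of this family that the name list does not include, went with Sfrp2: it read 81 and 52 in neurons, against 3 and 10 in astrocytes, at least 4.16-fold higher in neurons (adjusted p = 0.000488).

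Of the Dickkopf genes, whose best known members block Lrp6, Dkk3, a divergent member of the family, was the only one tested. Probe set 1448669_at read 70 and 43 in neurons, against 141 and 159 in astrocytes (2.40-fold, adjusted p = 0.00167), and 1417312_at read 27 and 39 in neurons, against 105 and 97 in astrocytes (2.51-fold). The call of 1448669_at was lost without astrocytes replicate 1 (adjusted p = 0.0578) or astrocytes replicate 2 (0.0749). Dkk2 was too dim for the filter at 4 and 2 in neurons, against 24 and 16 in astrocytes; without the filter it was called higher in astrocytes, and its mean there did not exceed the control level of the neuron arrays. Dkk1, Dkk4, Sfrp5 and Wif1 were also too dim to be tested.

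Inside the cell, Apc, the scaffold of the complex that marks beta-catenin for breakdown and a microtubule-binding protein of axons, depended on the probe set. Probe set 1435543_at read 5202 and 5215 in neurons, against 324 and 357 in astrocytes (14.8-fold higher in neurons, log2 fold change 3.89, interval 3.63 to 4.15, adjusted p = 1.35e-07). Probe set 1420956_at read 988 and 863 in neurons, against 861 and 783 in astrocytes (log2 fold change 0.17, interval -0.12 to 0.46, adjusted p = 0.294), and 1450056_at read 90 and 90 in neurons, against 124 and 85 in astrocytes (-0.17, adjusted p = 0.526). The ratio of 1435543_at to 1420956_at was 5.27 and 6.04 in neurons, against 0.376 and 0.456 in astrocytes. The 2 ranges did not overlap, and which transcript regions these probe sets read was not analysed here.

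The fourth Apc probe set, 1420957_at, read 59 and 295 in neurons, against 45 and 17 in astrocytes, with the neuron arrays far apart (adjusted p = 0.0281). Its call was lost without neurons replicate 2 (adjusted p = 0.295), astrocytes replicate 1 (0.169) or astrocytes replicate 2 (0.361), and its log2 fold change of 1.85 was 2.90 without neurons replicate 1 and 0.80 without neurons replicate 2. It was also lost without the filter (0.148). Under limma without the mean-variance trend it was lost as well (0.0593). The mean of the 4 Apc probe sets had a log2 fold change of 1.43 (adjusted p = 0.000156). Apc2, a neural relative outside the list of names, was 4.23-fold higher in neurons, at 164 and 182 in neurons, against 24 and 40 in astrocytes.

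Ctnnb1, which encodes beta-catenin, was higher in astrocytes on all 3 of its probe sets. The brightest, 1420811_a_at, read 5577 and 5398 in neurons, against 6344 and 7336 in astrocytes (1.24-fold, adjusted p = 0.0332), and 1450008_a_at and 1430533_a_at gave 1.89-fold and 2.00-fold. The call of 1420811_a_at was lost without neurons replicate 1 (adjusted p = 0.170), neurons replicate 2 (0.217) or astrocytes replicate 2 (0.119), in the unfiltered fit (0.117) and in the fit without a mean-variance trend (0.144). That of 1430533_a_at was lost without astrocytes replicate 2 (0.0574). The mean of the 3 probe sets had a log2 fold change of -0.74 (adjusted p = 0.000478).

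The feedback inhibitors went apart. Axin2, often used as a readout of beta-catenin signalling, read 91 and 72 in neurons, against 215 and 142 in astrocytes (2.00-fold higher in astrocytes, log2 interval -1.53 to -0.48, adjusted p = 0.00536). This call was lost without neurons replicate 1 (adjusted p = 0.0704), neurons replicate 2 (0.119) or astrocytes replicate 1 (0.0917). Nkd1, which acts on dishevelled, read 86 and 44 in neurons, against 25 and 23 in astrocytes on 1429506_at (2.04-fold higher in neurons, adjusted p = 0.0161), while 1429507_at read 36 and 38 in neurons, against 44 and 37 in astrocytes (log2 fold change -0.10). The Nkd1 call was lost without neurons replicate 1 (adjusted p = 0.0968), astrocytes replicate 1 (0.146) or astrocytes replicate 2 (0.166), without the filter (0.0793) and when its probe sets were averaged (0.103). Its relative Nkd2, outside the list of names, was at least 4.31-fold higher in neurons, at 69 and 69 in neurons, against 8 and 2 in astrocytes. Axin1, the scaffold present without a signal, gave no call on its brighter probe set (119 and 118 in neurons, against 138 and 174 in astrocytes, adjusted p = 0.125) and a call at the edge on 1426967_at (37 and 37 in neurons, against 69 and 56 in astrocytes, 1.51-fold higher in astrocytes, adjusted p = 0.0450). That edge call was lost whichever array was dropped (adjusted p of 0.0721 to 0.159), with an offset 4 times smaller (0.0519), without the filter (0.0997) and with the replicate block (0.0601), while the mean of both probe sets was called, at -0.47 (adjusted p = 0.0288).

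Both measured TCF genes, whose proteins carry beta-catenin to DNA, were higher in astrocytes. Tcf7l1, the family member best known as a repressor, read 55 and 64 in neurons, against 284 and 322 in astrocytes (4.38-fold, adjusted p = 1.42e-05). Tcf7l2, a regulator of oligodendrocyte maturation and of the thalamus, read 70 and 72 in neurons, against 299 and 276 in astrocytes on 1429428_at (3.59-fold, adjusted p = 2.26e-05), and 1429427_s_at read 30 and 36 in neurons, against 163 and 132 in astrocytes (3.51-fold). Lef1 was too dim to be tested: its probe sets read between 11 and 25, so the LEF member was near background in both cultures. Tcf7l1 probe set 1436207_at had unequal neuron arrays (17 and 69); its log2 fold change of -1.96 moved to -1.22 when neurons replicate 1 was dropped, to -2.69 when neurons replicate 2 was dropped and to -1.35 with an offset 4 times as large, and its call was lost without astrocytes replicate 1 (adjusted p = 0.112) or astrocytes replicate 2 (0.143). Tcf7l2 probe set 1425229_a_at was under the background in neurons (3 and 9, against 40 and 34 in astrocytes, at least 1.68-fold higher in astrocytes) and lost its call without astrocytes replicate 1 (0.0514). Its log2 fold change of -1.44 moved to -0.64 and to -2.22 with the larger and the smaller offset.

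**Figure D4:**
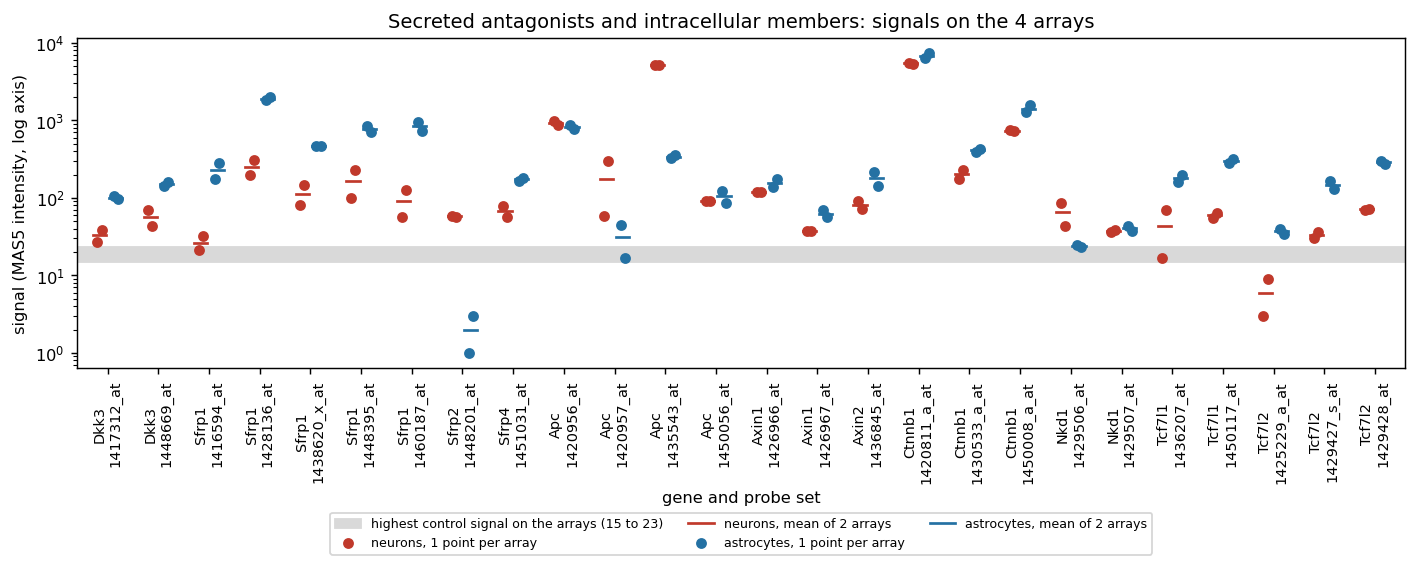
Signal (MAS5 intensity, log axis) of the tested probe sets of secreted antagonists and intracellular members, with neurons left of astrocytes, 1 point per array and a line at the mean of 2 arrays; the grey band spans the highest control signal of the arrays, 15 to 23. Sfrp1 lies higher in astrocytes and Sfrp2 higher in neurons, and of the 4 Apc probe sets 1435543_at stands apart, with 5202 and 5215 in neurons and 324 and 357 in astrocytes.

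**Figure D5:**
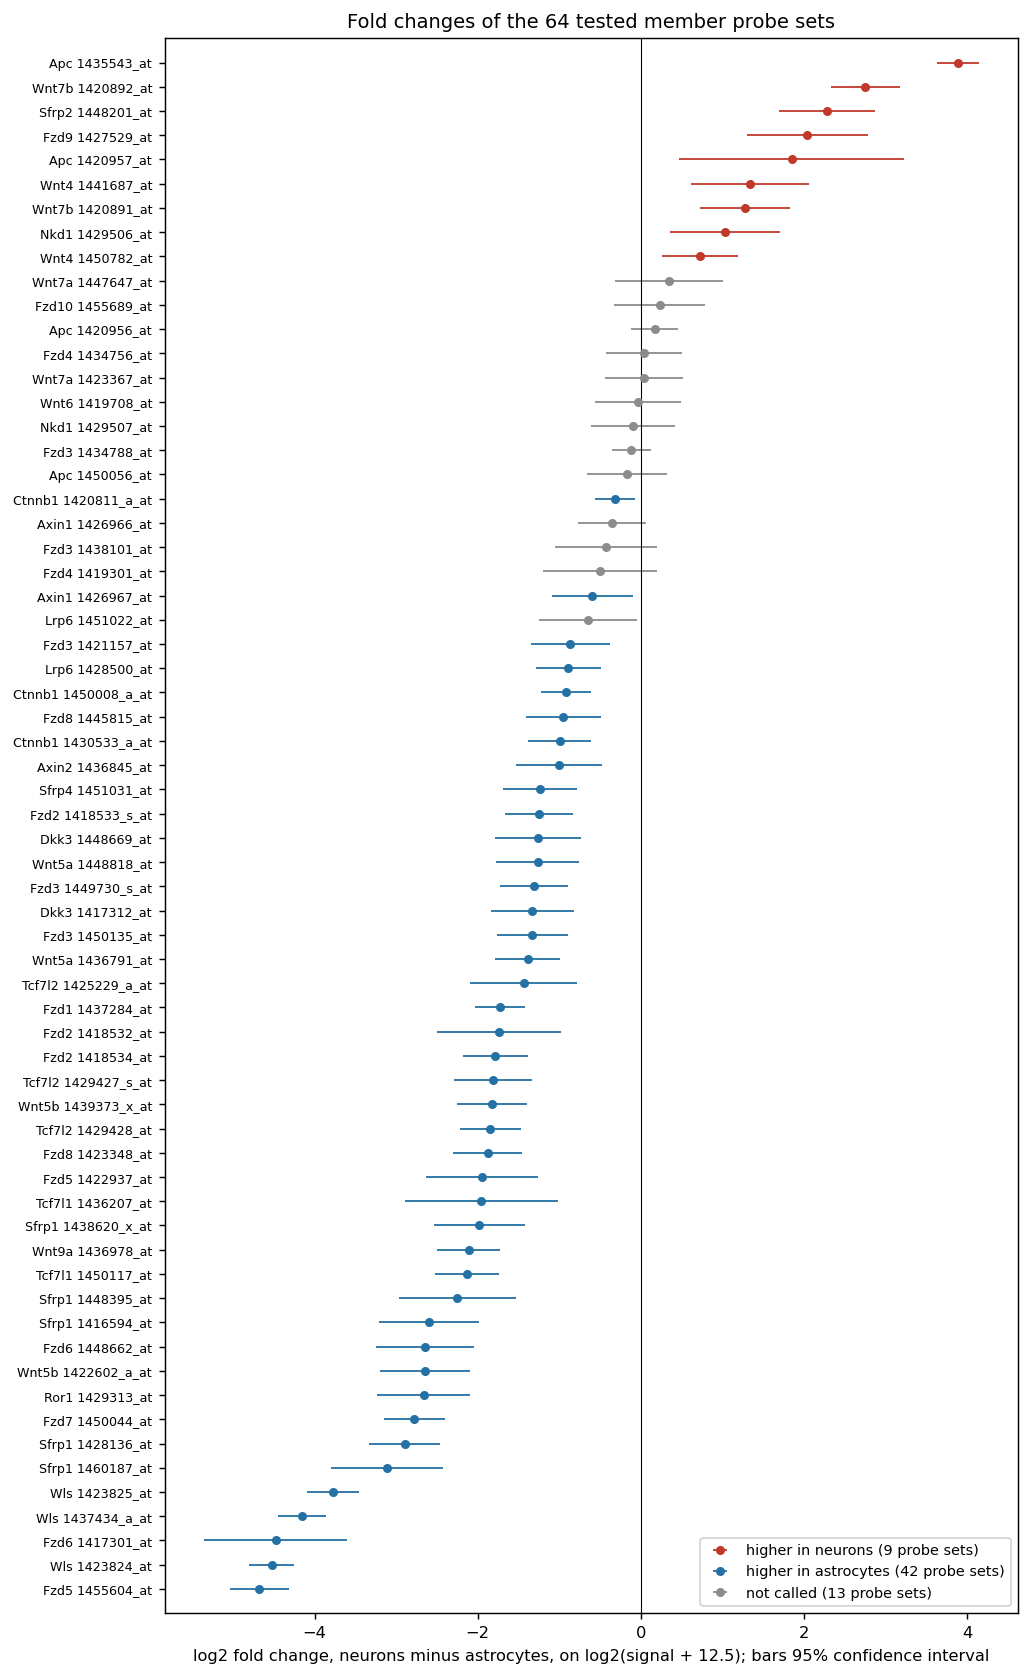
Log2 fold change (x axis, neurons minus astrocytes, on log2(signal + 12.5)) of the 64 tested member probe sets with 95% confidence intervals, coloured by call: 9 higher in neurons, 42 higher in astrocytes and 13 not called. The values run between 3.89 for Apc 1435543_at and -4.68 for Fzd5 1455604_at, and the probe sets of Apc, Fzd3, Nkd1, Axin1 and Lrp6 fall under different calls.

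Other genes of the pathway, in lists that overlap in a few genes, were read in the same fit. The counts below stand beside the shares over all 12040 tested genes, 31% called higher in neurons and 31.1% in astrocytes. Of 34 intracellular transduction genes, 33 were tested, 18 were higher in neurons and 4 in astrocytes, with a median log2 fold change of 0.53. The largest in neurons were Tle4, a corepressor of TCF factors (5.90-fold, 790 and 720 in neurons, against 123 and 112 in astrocytes), Nkd2 and Apc2. The kinase gene Gsk3b, chosen after its values were seen, was also higher in neurons, at 1231 and 1129 in neurons, against 382 and 449 in astrocytes (adjusted p = 2.51e-05). In astrocytes the largest were Tle3 (1.67-fold), Ctbp2 (1.58-fold) and Ctnnbip1, an inhibitor of beta-catenin (1.56-fold). The receptors and these intracellular genes outside the name list thus gave counts on opposite sides. The members' own intracellular genes did not lean to neurons. In the group of destruction complex, beta-catenin and feedback, 2 genes were higher in neurons and 2 in astrocytes (median log2 fold change -0.31). For TCF and LEF factors the counts were 0 and 2 (median -1.99). The difference between these lists was not tested.

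Surface modulators outside the list of names numbered 28 with a probe set, of which 20 were tested. Of these, 4 were higher in neurons and 8 in astrocytes (all tested genes: 31% and 31.1%). Rspo2 and Rspo3 encode R-spondins, secreted proteins that raise the level of frizzled receptors. Rspo2 read 438 and 421 in neurons, against 15 and 10 in astrocytes, which were under the background (at least 26.8-fold higher in neurons, adjusted p = 7.18e-07), and Rspo3 was at least 7.09-fold higher in neurons. Lgr4, a receptor of R-spondins chosen after its values were seen, had the opposite direction, at 378 and 294 in neurons, against 864 and 839 in astrocytes (adjusted p = 0.000101). The glypican genes Gpc4 (7.33-fold) and Gpc6 (4.67-fold) and the receptor-like gene Bambi (5.48-fold) were the largest in astrocytes.

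In the polarity and calcium branch, 7 of 20 tested genes were higher in neurons and 10 in astrocytes (all tested genes: 31% and 31.1%). Celsr3, an adhesion receptor needed for axon tracts, was at least 8.56-fold higher in neurons (114 and 160 in neurons, against 3 and 4 in astrocytes), Mapk8 was 7.03-fold higher and Prickle1 5.93-fold. Daam2 (4.98-fold), Nfatc1 (3.52-fold) and Rhoa (2.97-fold) were the largest in astrocytes. Of 19 tested genes from reports of beta-catenin targets in various tissues, 7 were higher in neurons and 6 in astrocytes. These counts are near the same shares over all tested genes. Mycn (at least 44.2-fold), Neurod1 (17.7-fold) and Sp8 (at least 7.12-fold) led in neurons. Ccnd1 (13.9-fold), Ccn5 (11.6-fold) and Cd44 (11.3-fold) led in astrocytes. Read beside Axin2, this list had no common direction (median log2 fold change -0.04).

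Markers of other cell types moved with the same contrast, and their part in the results above was not tested. Among meningeal, microglial, choroid plexus, ependymal, endothelial and mural genes, the markers named beside the first gene of each list were chosen after their values were seen. All 12 neuron markers had calls in neurons, with summed signals of 34593 and 34209 in neurons, against 3236 and 3044 in astrocytes. Of 11 tested astrocyte markers 8 had calls in astrocytes and 2 in neurons (summed 12089 and 13178 in neurons, against 25157 and 26460 in astrocytes). The 2 astrocyte markers called in neurons were Slc1a2 (4.47-fold) and Aldoc (1.51-fold). Of 9 tested meningeal fibroblast markers 6 had calls in astrocytes and 2 in neurons (summed 695 and 688 in neurons, against 4135 and 4336 in astrocytes), with Col1a1 at 27 and 24 in neurons, against 41 and 103 in astrocytes. Islr read 29 and 32 in neurons, against 2465 and 2689 in astrocytes (60.2-fold higher in astrocytes), Foxc1 was at least 15.8-fold and Col1a2 13.9-fold higher in astrocytes. The 2 fibroblast markers called in neurons were Ptgds (2.12-fold) and Lum (1.70-fold). Dcn, with no call, read 290 and 391 in neurons, against 255 and 261 in astrocytes. Microglial markers were 5 tested of 11, with 4 calls in astrocytes (88 and 116 in neurons, against 724 and 689 in astrocytes), and Aif1 read 4 and 14 in neurons, against 13 and 25 in astrocytes. C1qa read 2 and 2 in neurons, against 124 and 156 in astrocytes; Ctss was 11.8-fold, C1qb at least 4.07-fold and Csf1r 2.91-fold higher in astrocytes. Choroid plexus and ependymal markers were 7 tested of 10, with 6 calls in astrocytes (254 and 226 in neurons, against 1579 and 1685 in astrocytes), and Ttr read 44 and 19 in neurons, against 14 and 11 in astrocytes. Dynlrb2 was 10.2-fold, Foxj1 10.1-fold, Enkur 7.51-fold and Otx2 at least 4.45-fold higher in astrocytes. Endothelial and mural markers were 6 tested of 12, with 4 calls in astrocytes (169 and 629 in neurons, against 12590 and 13532 in astrocytes). Pecam1 read 18 and 3 in neurons, against 4 and 2 in astrocytes, and Kdr, with no call, 29 and 42 in neurons, against 50 and 42 in astrocytes. Slco1a4 read 10 and 60 in neurons, against 4708 and 4857 in astrocytes (119-fold higher in astrocytes), and Tagln was 67.4-fold, Acta2 24.3-fold and Pdgfrb 13.5-fold higher in astrocytes. Oligodendrocyte lineage genes had 8 tested markers, with 5 calls in neurons and 2 in astrocytes (5763 and 5182 in neurons, against 5545 and 6148 in astrocytes; Pdgfra 1177 and 1302 in neurons, against 19 and 21 in astrocytes). Progenitor markers split, with 3 of 9 called in neurons and 5 in astrocytes (5435 and 5082 in neurons, against 9409 and 8618 in astrocytes; Pax6 92 and 74 in neurons, against 722 and 692 in astrocytes). The 3 progenitor markers called in neurons were Mki67 (14.3-fold), Top2a (3.93-fold) and Hes5 (3.02-fold). The 2 oligodendrocyte lineage genes called in astrocytes were Cnp (3.29-fold) and Olig1 (1.59-fold). Thalamic and habenular markers were 4 tested of 8, with 2 calls in neurons and 1 in astrocytes (1211 and 1429 in neurons, against 1452 and 1277 in astrocytes). Neurons replicate 2 stood apart from replicate 1 on Gfap (109 against 2) as it did on Sfrp1, Fzd6 and Tcf7l1 1436207_at. It also read above replicate 1 on Tagln (95 against 6), Acta2 (361 against 87), Slco1a4 (60 against 10) and Pdgfrb (44 against 15). It read below replicate 1 on Col1a2 (20 against 63), Col3a1 (13 against 69) and Nes (52 against 162). These genes were put together after their values were seen. The other tested astrocyte markers had no common direction. In neurons replicates 1 and 2, Mlc1 read 276 and 276, Aldh1l1 386 and 338, S100b 104 and 70, and Apoe 3392 and 3180. Aqp4 read 551 and 701, Slc1a3 1138 and 1258, Sox9 211 and 244, and Aldoc 2574 and 3422. Gja1 read 1623 and 1715, and Slc1a2 1832 and 1865. The difference between the neuron arrays was not tested. The brighter Tcf7l1 probe set, 1450117_at, read 55 and 64.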

How the data were processed

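Cultures of mouse cortical neurons and astrocytes, 2 arrays each, were measured on Affymetrix arrays. Per the labels' protocols, Trizol was used for total RNA, of which 50 ng went into 2 rounds of cDNA synthesis and biotin labelling. The deposited values are intensities on a linear scale, 1 per probe set. Per the submitters' processing notes, the tool was MAS5. The trimmed mean is 150.0 on every array. Platform symbols were updated by Entrez identifier.

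Values entered as log2(signal + 12.5), where the offset is the median over arrays of the 25th percentile, so fold changes of dim genes are understated. The filter kept 25019 probe sets. The comparison used limma 3.58.1 (R 4.3.3) with lmFit and a trended, two-sided eBayes (2 residual and 6.27 prior degrees of freedom). Benjamini-Hochberg adjustment ran over the kept probe sets at 0.05, and each adjusted p is from this fit or a named alternative. The number of arrays limits the precision. Titles call the arrays biological replicates but name no separate animals or cultures, so the p-values measure only the spread between these arrays, which may be technical. Where no array of a group exceeded the highest of 27 Bacillus subtilis controls, "at least" gives the other group's mean over the mean of those control levels. The fit was also run on simulated arrays with 200 changed probe sets and independent noise drawn from the fitted variance prior. In these data 62.2% of tested genes were called. The simulation differs in this, so it cannot show how reliable the calls here are.

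Members, gene lists and tests were chosen with earlier results of these data known. Named are all members with a call or tested without one and, from each further Wnt list, the 3 largest called differences in each direction; exceptions are marked. The groups share replicate numbers, but deviations of same-numbered arrays correlated at r = -0.090 over probe sets, so arrays were not paired. Alternatives varied the offset, filter, scaling, variance trend, probe set choice, replicate block and the arrays included.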

Additional observations from a re-analysis of the deposited data

How the results depend on the processing

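Of 51 called member probe sets, 35 kept their call under each of the 13 alternatives that tested them, 16 lost it under at least 1, and 0 changed direction. Member genes higher in neurons numbered 6, and 2 with a filter at the 75th percentile, where 21 member genes were tested; for probe sets the counts were 9 and 2. With 1 array left out they lay between 3 (without neurons replicate 1) and 5 for genes and between 5 and 7 for probe sets. In astrocytes they lay between 16 and 17 for genes and between 34 and 37 for probe sets, against 19 and 42 with all arrays. Setting array medians equal shifted log2 fold changes by -0.11, and all genes then gave 3310 calls in neurons and 4177 in astrocytes, against 3737 and 3749, while member genes stayed at 6 and 19. The replicate block also gave 6 and 19 genes, and 9 and 42 probe sets; it ended the call of Axin1 1426967_at (adjusted p = 0.0601) and made one for Lrp6 1451022_at (0.0363), which quantile normalization (0.0399) and equal medians (0.0314) made too. Averages over the probe sets of a gene, here and above, took tested probe sets only, and gave 5 and 21 genes.

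Among tested probe sets named without a call, 4 changed sign. With 1 array left out, the log2 fold change lay between -0.18 and 0.12 for Wnt6 1419708_at, between -0.13 and 0.20 for Wnt7a 1423367_at, between -0.021 and 0.10 for Fzd4 1434756_at and between -0.41 and 0.072 for Apc 1450056_at. With quantile normalization it was -0.040 for Wnt7a and -0.060 for Fzd4, and with equal medians -0.071 for Wnt7a and -0.068 for Fzd4. The cause was not tested. The order of the largest differences in astrocytes also moved: the log2 fold change was -3.70 for Fzd5 and -4.18 for Wls with an offset 4 times as large, and Fzd6 reached -5.18 without neurons replicate 2.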

Other observations

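In the RefSeq annotation of the mouse assembly GRCm38.p6, 4 pairs of Wnt genes stand next to each other with 0 protein-coding genes between them: Wnt6 and Wnt10a, Wnt3a and Wnt9a, Wnt9b and Wnt3, and Wnt10b and Wnt1. Only the pair of Wnt9a and Wnt3a held a gene that was called. Wnt9a 1436978_at read 100 and 78 in neurons, against 410 and 438 in astrocytes, while its neighbour Wnt3a read 10 and 28 in neurons, against 7 and 25 in astrocytes. A second Wnt9a probe set, 1425889_at, read 3 and 14 in neurons, against 6 and 17 in astrocytes. In the pair of Wnt6 and Wnt10a, Wnt6 1419708_at was above the control level on all 4 arrays, and Wnt10a read 12 and 18 in neurons, against 23 and 22 in astrocytes. These are values of single probe sets, and no test of neighbouring genes was made.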
